A study of Mus musculus with 9 samples.

Results

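Macrophages recover iron from the heme of engulfed red cells and damaged tissue, and 10 genes that carry heme and iron along this route were examined in RAW264.7 cells, a mouse macrophage line. The genes share a known function and were picked with earlier results of these data known, and they are Hmox1 and Hmox2 (heme oxygenases), Blvra and Blvrb (biliverdin reductases), Slc48a1 (heme transporter), Fth1 and Ftl1 (ferritin chains), Slc40a1 (iron exporter), Slc11a1 (phagosomal metal transporter) and Tfrc (transferrin receptor). All 10 were present among the 54532 genes of the expression table. Gene expression was measured by RNA-seq of poly(A)-selected mRNA in 3 groups of 3 libraries. Control cells were untreated, the LPS group received lipopolysaccharide (LPS, a bacterial cell wall component that activates macrophages) at 1 μg/ml, and the LPS + G-CDs group received LPS together with G-CDs at 400 μg/ml, each for 6 h. G-CDs are carbon dots, small carbon nanoparticles prepared from Glycyrrhiza (licorice), that act as a mimic of superoxide dismutase. All groups were the same wild-type line, whose source is labelled as ascites, and no group received G-CDs without LPS. The titles of the LPS + G-CDs libraries name G-CDs, whereas their treatment label names LPS alone, and the group was taken from the titles.

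Heme oxygenase opens the heme ring and releases iron, carbon monoxide and biliverdin, and biliverdin reductase then turns biliverdin into bilirubin. Heme that reaches the lysosome is carried to the cytosol by the product of Slc48a1. Freed iron is stored inside the ferritin shell, which is built from heavy and light chains, or leaves the cell through ferroportin, the product of Slc40a1. Hmox1 and both ferritin genes are known targets of the transcription factors Nrf2, which activates them under oxidant stress, and Bach1, which represses them until heme binds it. When iron is scarce, iron regulatory proteins bind hairpins called iron-responsive elements. A hairpin ahead of the coding sequence then blocks translation, while hairpins behind the coding sequence protect the mRNA from decay.

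These hairpins are shown because they lie ahead of the coding sequence in members that store or export iron and behind it in the member that takes it up. A search of GENCODE M21 transcripts (GRCm38) looked for a loop CAGTGN, with N being A, C or T, that lies between 5 paired bases on each side and follows an unpaired C, with G-U pairs allowed. It found 1 site each in the 5′ UTR of Fth1 at chr19:9982732-9982760 on the plus strand, of Ftl1 at chr7:45459779-45459807 on the minus strand and of Slc40a1 at chr1:45925465-45925493 on the minus strand. The 3′ UTR of Tfrc held 4 sites on the plus strand, at chr16:32631219-32631247, chr16:32631598-32631626, chr16:32631663-32631691 and chr16:32631710-32631738. Among 22527 coding genes, 0.102% held such a match in a 5′ UTR and 0.488% in a 3′ UTR. The other members had no match. The loops are in capitals. The letters A to D give the order of the matches in Tfrc and are not established site names. Hairpins with other loops were not searched.
Fth1: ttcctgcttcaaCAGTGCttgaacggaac
Ftl1: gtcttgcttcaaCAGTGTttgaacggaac
Slc40a1: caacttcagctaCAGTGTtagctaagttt
Tfrc site A: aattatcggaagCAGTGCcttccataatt
Tfrc site B: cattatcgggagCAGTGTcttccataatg
Tfrc site C: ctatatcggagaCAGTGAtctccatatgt
Tfrc site D: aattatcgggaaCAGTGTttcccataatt
A match is a description of the letters, and the mRNA levels reported here do not measure binding or translation.

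Expression values are FPKM (fragments scaled by gene length and a library size), so that levels of different genes can be set side by side. Each library held from 14752400 to 17312255 reads assigned to genes. The library size behind the deposited values was not this number of reads but 1.11 to 1.14 times it in control, 0.929 to 0.936 times in LPS and 0.880 to 0.980 times in LPS + G-CDs, so a scaling that differs between groups is part of every FPKM. The LPS libraries were the most alike (pairwise Pearson r from 0.987 to 0.988), and those of control (0.940 to 0.969) and LPS + G-CDs (0.935 to 0.975) less so. Replicates 1 and 3 of LPS + G-CDs and control replicate 3 stood apart. In LPS + G-CDs replicate 1 the longest genes (median length 9129 bases) lay 0.264 above the group mean on the log2 scale and the shortest (median 683 bases) lay 0.144 below it, while in replicate 3 the longest lay at -0.251 and the shortest at 0.180. Control replicate 3 was shifted the same way, at -0.221 and 0.112, and it was also the control library with the most Fth1 and Ftl1 and the least Tfrc. Of 9 macrophage markers, 8 reached 1 FPKM, Mertk staying below 1 in every library, and globin genes were listed at 0 throughout. Nothing in the labels says that the 3 libraries of a group came from separate cultures, so p-values measure the spread between these libraries, and in bulk RNA fewer cells carrying a transcript and less of it per cell cannot be told apart.

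Relative to LPS-treated cells, cells given LPS + G-CDs carried more mRNA for the inducible heme oxygenase, 1 of the 2 biliverdin reductases, the heme transporter and the phagosomal metal transporter. Of the 9 members that reached 1 FPKM in at least 3 libraries, 4 differed at an adjusted p under 0.05 (limma on log2(FPKM + 1), Benjamini-Hochberg over 11585 genes), and all 4 were higher: Hmox1, Slc48a1, Blvrb and Slc11a1. In this comparison 0.25% of all tested genes were called higher and 0.242% lower. With 1 library left out, 2 to 5 members and 10 to 276 genes were called. Slc40a1 was below that expression filter and is described separately.

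**Figure D1:**
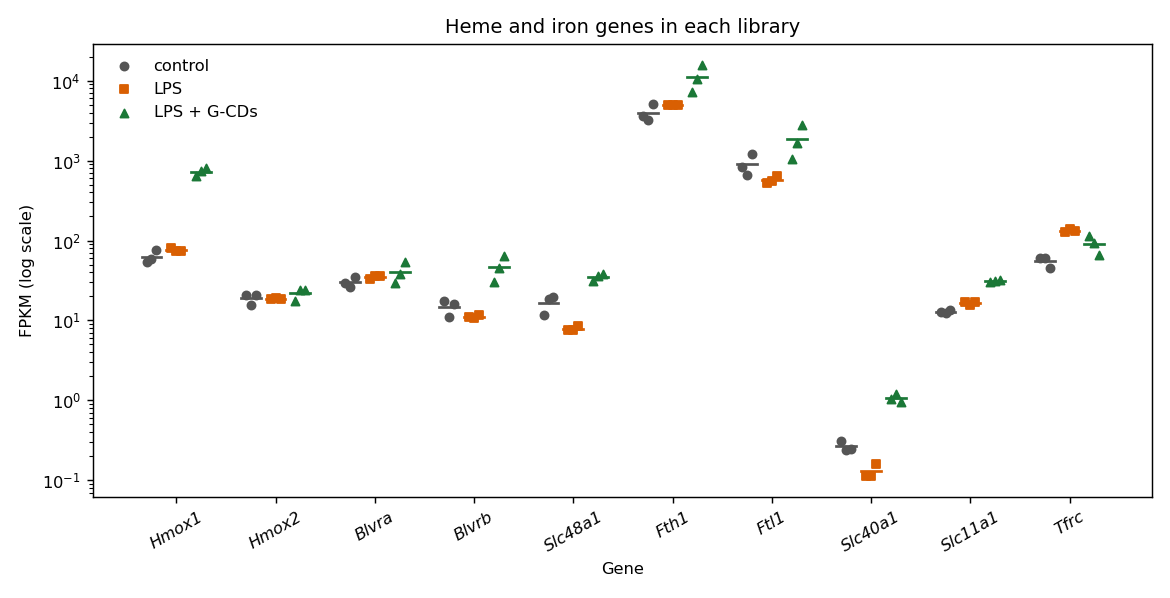
FPKM of the 10 genes in each library on a log axis, with 1 point per library and a line at the group mean (n = 3). Hmox1 lies at 634 to 813 FPKM in LPS + G-CDs and at 53.1 to 80.7 FPKM in the other 6 libraries, whereas the ferritins Fth1 and Ftl1 spread widely within LPS + G-CDs.

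Hmox1 (chr8:75093621-75100589, plus strand, GRCm38) encodes the inducible heme oxygenase, HO-1. Its level was 53.1, 59.3 and 76.8 FPKM in control, 80.7, 73.8 and 74.7 FPKM in LPS, and 634, 737 and 813 FPKM in LPS + G-CDs. Every LPS + G-CDs library stood above every other library, while the control and LPS ranges overlapped. The mean of 728 ± 90.1 FPKM (SD, n = 3) in LPS + G-CDs was 9.53-fold that in LPS (76.4 ± 3.71 FPKM), and the lowest treated library was 7.86-fold the highest LPS library. On the log2(FPKM + 1) scale the difference was 3.23 (SE 0.17, limma adjusted p = 9.6e-05), the largest rise of the 11585 genes tested. By mean FPKM, Hmox1 stood at rank 773 of all genes in control, 704 in LPS and 59 in LPS + G-CDs.

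Hmox2 (chr16:4726361-4766742, plus strand) encodes the constitutive heme oxygenase. It was measured at 21.1, 15.7 and 20.5 FPKM in control, at 18.6, 19.1 and 18.3 FPKM in LPS, and at 17.6, 24.4 and 24.2 FPKM in LPS + G-CDs. The 3 ranges overlapped, and the log2 difference between LPS + G-CDs and LPS was 0.22 (SE 0.16, limma adjusted p = 0.43). The level of Hmox2 is uncertain, because 47.7% of the 50-base words in its longest transcript also occur in transcripts of Cdip1. Cdip1 overlaps Hmox2 on the opposite strand with 416 to 571 reads per library. Whether reads were counted by strand is not given in the sources used here. The ratio of Hmox1 to Hmox2 within a library was 2.52 to 3.79 in control, 3.86 to 4.34 in LPS and 30.3 to 35.9 in LPS + G-CDs. At the mRNA level, the inducible enzyme thus outnumbered the constitutive one in all 9 libraries, and by the widest margin in the 3 libraries with G-CDs.

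The 2 biliverdin reductases differed in their values. Blvrb (chr7:27447978-27466144, plus strand), which reduces biliverdin IXβ and also flavins, was at 17.7, 10.9 and 15.8 FPKM in control, 10.9, 10.6 and 11.8 FPKM in LPS, and 30.4, 45.6 and 64.4 FPKM in LPS + G-CDs. The LPS + G-CDs libraries lay above all others but differed among themselves, with a mean of 46.8 ± 17.1 FPKM (SD, n = 3) against 11.1 ± 0.594 FPKM in LPS, a 4.20-fold difference. The log2 difference was 1.92 (SE 0.26, limma adjusted p = 0.023). This call was lost when only the 6 libraries of the comparison were fitted (adjusted p = 0.068), without the expression filter (0.064), and without any 1 LPS library or LPS + G-CDs replicate 2 (0.0947 to 0.145), with log2 differences between 1.89 and 1.95.

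Blvra (chr2:127070665-127097084, plus strand) encodes the reductase that makes bilirubin IXα, the main form in the adult. It was measured at 29.5, 26.0 and 35.0 FPKM in control, 32.6, 35.8 and 35.9 FPKM in LPS and 29.4, 38.1 and 53.3 FPKM in LPS + G-CDs. The groups overlapped, and the log2 difference between LPS + G-CDs and LPS was 0.17 (SE 0.21, limma adjusted p = 0.63). Without LPS + G-CDs replicate 3 it was -0.05. Within each library, Blvrb was at 0.419 to 0.601 of Blvra in control, 0.297 to 0.336 in LPS and 1.03 to 1.21 in LPS + G-CDs, so that Blvrb exceeded Blvra in the 3 libraries given G-CDs and in no other.

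The sequences ahead of these 2 genes are given for the contrast in their levels. A core antioxidant response element, to which Nrf2 binds, was searched as TGACNNNGC on both strands of RefSeq windows (GRCm38.p6) from 250 bases before to 50 bases after each start site. Windows were held for 7 of the 10 members, and 1 of these 7 genes, Blvra, had a match, on the minus strand with its first base at -49. Hmox1, Slc48a1 and Slc40a1 were not searched. Among all 27025 genes with windows, 14.0% had one. The 250 bases before the start are shown for Blvra (chr2:127070407-127070656) and for the upstream start of Blvrb (chr7:27447728-27447977), with the match in capitals.
Blvra: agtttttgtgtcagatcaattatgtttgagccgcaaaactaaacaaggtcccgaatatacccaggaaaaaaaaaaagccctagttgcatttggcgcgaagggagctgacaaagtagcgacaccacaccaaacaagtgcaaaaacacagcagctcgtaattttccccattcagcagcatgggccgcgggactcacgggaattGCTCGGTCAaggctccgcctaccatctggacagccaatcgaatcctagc
Blvrb: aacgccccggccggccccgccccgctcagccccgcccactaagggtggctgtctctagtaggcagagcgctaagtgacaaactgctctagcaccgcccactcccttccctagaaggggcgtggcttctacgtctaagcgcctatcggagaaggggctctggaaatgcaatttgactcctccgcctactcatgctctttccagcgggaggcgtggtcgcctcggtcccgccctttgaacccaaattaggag
The letters describe these windows only, and elements farther from the start were not searched.

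Slc48a1 (chr15:97778520-97792692, plus strand), also called HRG1, moves heme out of the lysosome. Its level was 11.8, 18.7 and 19.5 FPKM in control, 7.55, 7.56 and 8.43 FPKM in LPS, and 31.2, 36.1 and 38.5 FPKM in LPS + G-CDs. The 3 groups did not overlap, with LPS lowest and LPS + G-CDs highest. LPS + G-CDs exceeded LPS 4.50-fold (log2 difference 2.03, SE 0.19, limma adjusted p = 0.0036). In LPS it fell by 0.97 on the log2 scale relative to control (SE 0.19, limma adjusted p = 0.004), and in LPS + G-CDs it was 1.06 above control (SE 0.19, adjusted p = 0.0029). All 3 comparisons kept their call in each of the 17 alternative settings.

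Slc11a1 (chr1:74375195-74386062, plus strand) encodes NRAMP1, which exports iron and manganese from the phagosome and withholds them from microbes. It was at 12.9, 12.5 and 13.4 FPKM in control, 16.8, 15.4 and 17.0 FPKM in LPS, and 30.7, 30.8 and 32.4 FPKM in LPS + G-CDs. The groups did not overlap and stood in that order. LPS + G-CDs was 1.91-fold LPS (log2 difference 0.89, SE 0.10, limma adjusted p = 0.0068), a call that was lost as TPM (0.75, adjusted p = 0.087) and without any 1 LPS library or LPS + G-CDs replicate 2 (adjusted p from 0.0545 to 0.0772). The rise in LPS over control was smaller, at 0.32 (SE 0.10, adjusted p = 0.035), and it kept its call in 8 of 17 alternative settings, being lost without any 1 of the 6 libraries and falling to 0.07 as TPM. RAW264.7 cells derive from the BALB/c strain, which carries a variant of Slc11a1 that impairs the protein, so that the mRNA level is not a measure of transport.

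**Figure D2:**
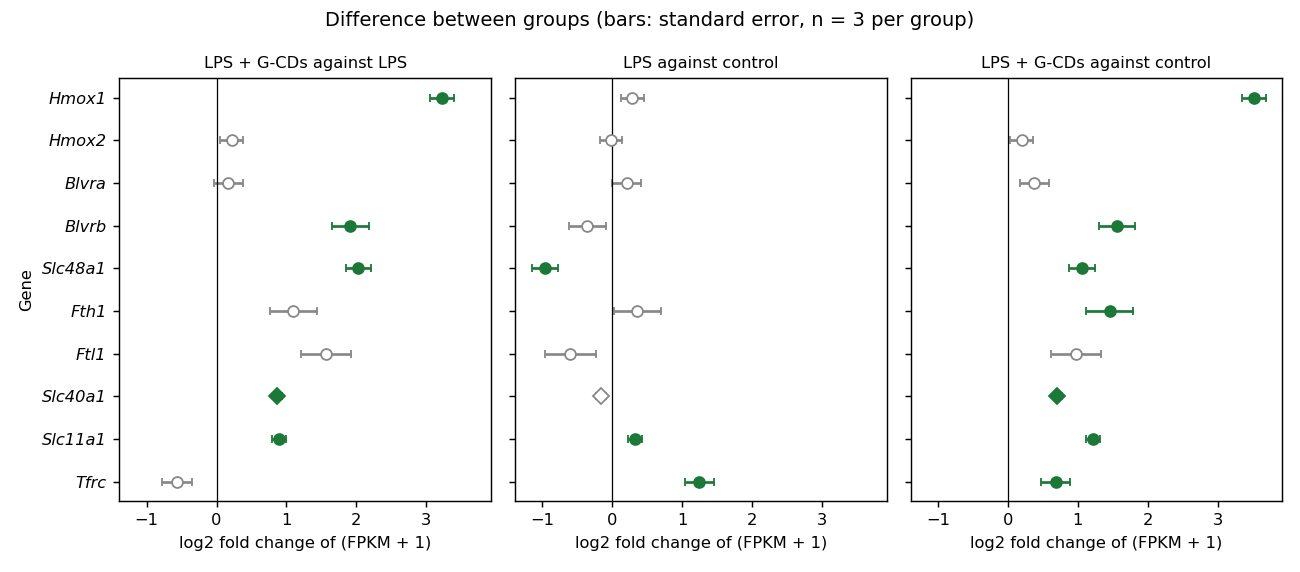
Log2 fold changes of FPKM + 1 for the 3 comparisons, with bars of 1 standard error and filled symbols for an adjusted p under 0.05 (limma, n = 3 per group). Diamonds mark Slc40a1, fitted without the expression filter, and Hmox1 has the largest value against LPS (3.23) and against control (3.52).

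The ferritin genes, the store for released iron, were the most abundant members. Fth1 (chr19:9982703-9985092, plus strand), the heavy chain that oxidizes iron, was at 3585, 3220 and 5048 FPKM in control, 4987, 4955 and 4959 FPKM in LPS, and 7175, 10498 and 15944 FPKM in LPS + G-CDs. It ranked 2nd, 5th and 3rd of all genes by mean FPKM in control, LPS and LPS + G-CDs. Each LPS + G-CDs library exceeded each LPS library, and the mean was 2.26-fold higher, but the difference of 1.10 on the log2 scale (SE 0.34) did not pass the test (limma adjusted p = 0.25), the 3 libraries with G-CDs having a coefficient of variation of 39.5%. With the per-library trend on gene length removed it was 0.89 (SE 0.20, adjusted p = 0.1), and without LPS + G-CDs replicate 1 it was 1.38 (adjusted p = 0.054). Relative to control, Fth1 rose by 1.45 (SE 0.34, adjusted p = 0.012), a call lost without the expression filter (adjusted p = 0.52) and in the 6 libraries alone (0.083).

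Ftl1 (chr7:45457944-45459884, minus strand), the light chain that helps the iron core form, was measured at 821, 659 and 1204 FPKM in control, 524, 555 and 643 FPKM in LPS, and 1049, 1681 and 2788 FPKM in LPS + G-CDs. LPS + G-CDs lay above LPS without overlap, 3.21-fold on average, but overlapped control. The log2 difference from LPS was 1.57 (SE 0.36, limma adjusted p = 0.15), and it passed the test in 1 of 17 alternative settings, without LPS + G-CDs replicate 1 (1.92, adjusted p = 0.033). At an unadjusted p under 0.01 with over 1.5-fold, the looser rule tried as an alternative, Ftl1 and Fth1 were both called higher than in LPS, which made 6 members, and the share of all tested genes called was 1.24% higher and 1.24% lower. The level of Ftl1 is uncertain, since 90.6% of the 50-base words of its longest transcript also occur in 17 other genes. Its pseudogene Ftl1-ps1, which holds 73.4% of them, had 531 to 1098 reads in control, 346 to 407 in LPS and 591 to 1941 in LPS + G-CDs.

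Both ferritins together made up 1.43% to 1.99% of the summed FPKM of all genes in control, 1.58% to 1.61% in LPS, and 2.47%, 3.18% and 3.96% in LPS + G-CDs. The ratio of Fth1 to Ftl1 was 4.19 to 4.89 in control, 7.72 to 9.51 in LPS and 5.72 to 6.84 in LPS + G-CDs, so that the heavy chain was most in excess in LPS. The groups did not overlap in this ratio, which was not tested and carries the uncertainty of Ftl1.

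Slc40a1 (chr1:45908068-45926523, minus strand) encodes ferroportin, the only known exporter of iron from the cell, and was by far the lowest member. It had 52, 37 and 39 reads in control, 14, 14 and 21 in LPS, and 135, 178 and 122 in LPS + G-CDs. These correspond to 0.308, 0.241 and 0.243 FPKM, to 0.113, 0.113 and 0.161 FPKM, and to 1.04, 1.19 and 0.965 FPKM. The groups did not overlap, with LPS lowest, and the mean of LPS + G-CDs (1.06 ± 0.115 FPKM, SD, n = 3) was 8.28-fold that of LPS (0.129 ± 0.0277 FPKM). Fitted without the expression filter, the difference on the log2(FPKM + 1) scale was 0.87 (SE 0.07, limma adjusted p = 0.0043), a scale that understates the change of so low a gene. With voom on reads recovered from the FPKM values and genes of at least 10 reads in 3 libraries, an alternative chosen after seeing the data, the log2 difference was 3.03 (SE 0.28, adjusted p = 0.0015). As TPM it was 1.44 (limma adjusted p = 0.046). In LPS against control Slc40a1 differed by -0.16 without the filter (adjusted p = 0.18), by -0.48 as TPM (adjusted p = 0.13) and by -1.02 with voom (adjusted p = 0.03), so that this fall depended on the method. Relative to control, LPS + G-CDs was higher by 0.71 without the filter (adjusted p = 0.00044) and by 2.0 with voom (adjusted p = 8.5e-05).

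Tfrc (chr16:32608920-32632794, plus strand), the receptor that takes up transferrin-bound iron, differed from the other members in its order. It was at 61.0, 60.8 and 44.8 FPKM in control, 127, 139 and 130 FPKM in LPS, and 114, 93.0 and 65.7 FPKM in LPS + G-CDs. LPS was highest without overlap, and LPS + G-CDs lay between the other groups. Tfrc rose 2.38-fold in LPS over control (log2 difference 1.25, SE 0.21, limma adjusted p = 0.0021) in each of the 17 alternative settings. The difference between LPS + G-CDs and LPS was -0.57 (SE 0.21, adjusted p = 0.3) and passed the test in no setting, the adjusted p ranging from 0.061 to 0.71 over the 17 alternatives. Relative to control, LPS + G-CDs was higher by 0.68 (SE 0.21, adjusted p = 0.044), a call that 8 of 17 alternatives lost, among them TPM (0.25, adjusted p = 0.57) and those without LPS + G-CDs replicate 1 (0.50, adjusted p = 0.092) or replicate 2 (0.65, adjusted p = 0.13) and those without any 1 control library (0.063 to 0.11).

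**Figure D3:**
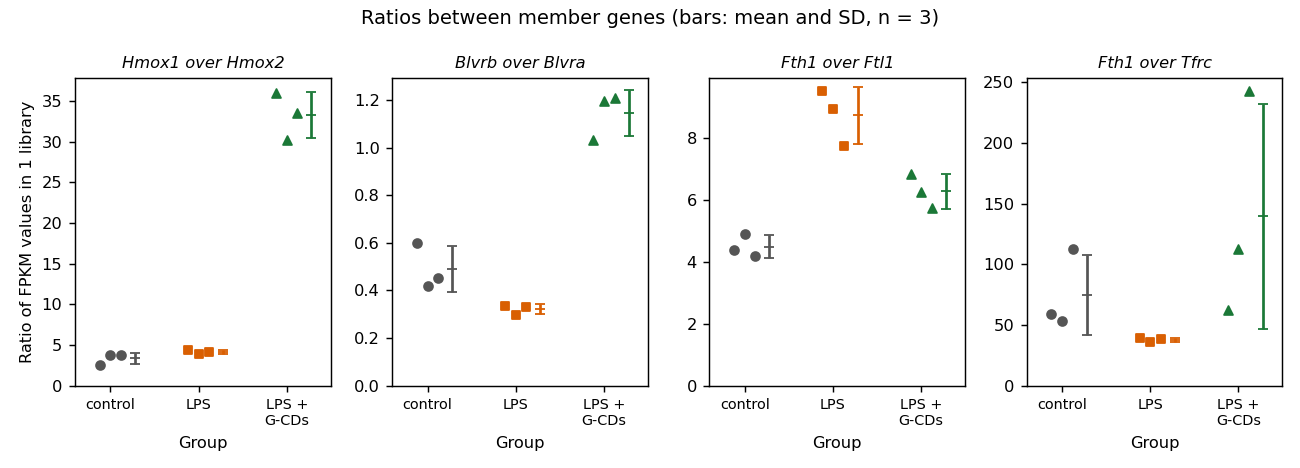
Ratios of FPKM between pairs of members within each library (points) with the group mean and SD (bars, n = 3). Hmox1 over Hmox2 and Blvrb over Blvra are highest in LPS + G-CDs without overlap, Fth1 over Ftl1 is highest in LPS, and Fth1 over Tfrc ranges from 62.7 to 243 in LPS + G-CDs.

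Within LPS + G-CDs, replicate 1 was lowest and replicate 3 highest in FPKM for Hmox1, Blvra, Blvrb, Slc48a1, Fth1, Ftl1 and Slc11a1, and the reverse held for Tfrc. The summed FPKM of all genes also rose, from 333125 in replicate 1 to 382451 in replicate 2 and 472870 in replicate 3. As a share of that sum, replicate 3 was instead lowest for Hmox1 (0.190%, 0.193% and 0.172%). The same held for Slc48a1 (0.00936%, 0.00944% and 0.00814%) and Slc11a1 (0.00920%, 0.00805% and 0.00685%). The gene-length differences of replicates 1 and 3 described above moved with the FPKM order for the short ferritin genes (866 and 1340 bases) and the long Tfrc (6185 bases). With the length trend removed, Ftl1 differed from LPS by 1.34 (SE 0.25, limma adjusted p = 0.051) and Tfrc by -0.43 (SE 0.14, adjusted p = 0.22). In FPKM, Slc11a1 (coefficient of variation 3.06%), Slc48a1 (10.6%) and Hmox1 (12.4%) varied less among the LPS + G-CDs libraries than Blvrb (36.5%), Fth1 (39.5%) and Ftl1 (47.9%). The low value of Slc11a1 belongs to the FPKM scale, since its share of the summed FPKM fell from replicate 1 to replicate 3.

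**Figure D4:**
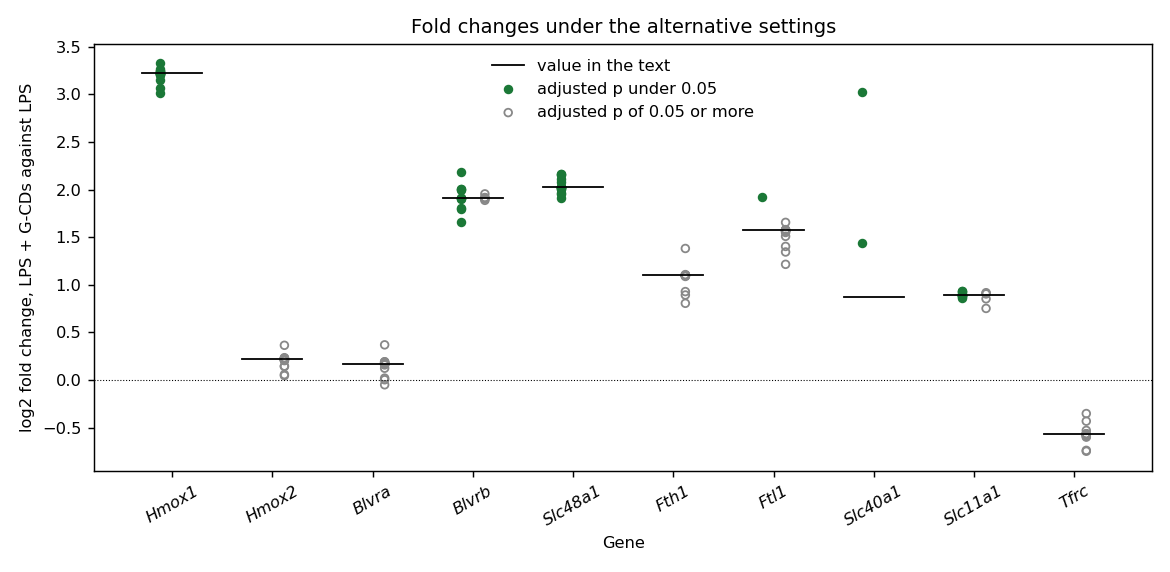
Log2 fold change of each member between LPS + G-CDs and LPS under the alternative settings (1 point per setting, filled where the adjusted p was under 0.05), with a line at the value given in the text. Hmox1 (3.02 to 3.33) and Slc48a1 (1.91 to 2.16) are filled throughout, whereas Blvrb and Slc11a1 have points of both kinds. The points of Slc40a1 lie on different scales of expression.

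Of the 9 tested members, 3 passed the test in LPS against control, with Tfrc and Slc11a1 higher and Slc48a1 lower. Across all tested genes this comparison called 15.8% higher and 15.6% lower, so the members' count was near that of genes at large. Hmox1 differed by 0.29 (SE 0.17, limma adjusted p = 0.23), Blvrb by -0.36 (SE 0.26, adjusted p = 0.34), Fth1 by 0.36 (adjusted p = 0.46) and Ftl1 by -0.60 (adjusted p = 0.24). Hmox1 passed in 1 of 17 alternatives, with the length trend removed (0.40, adjusted p = 0.023), and Blvrb (-0.64, adjusted p = 0.036) and Ftl1 (-0.87, adjusted p = 0.026) passed as TPM. That setting changed both the scaling and the genes kept, since the filter then let 14074 genes through, and the median over the genes tested was -0.224, beside 0.0165 over the 11585 genes as FPKM.

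Relative to untreated control cells, 6 of the 9 tested members were higher in LPS + G-CDs, beside 12.8% of all tested genes higher and 12.4% lower. Hmox1 was 11.5-fold control (log2 difference 3.52, SE 0.17, limma adjusted p = 9.6e-07), Blvrb 3.16-fold (1.56, adjusted p = 0.0025) and Slc11a1 2.42-fold (1.21, adjusted p = 2.9e-05). Slc48a1, Fth1 and Tfrc, described above, were the others. Ftl1 was 0.97 above control (adjusted p = 0.082) and passed in 4 of 17 alternatives. This comparison shares its libraries with the other 2 and is no separate evidence.

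Other genes of heme and iron metabolism were taken from 8 groups of 56 genes, all of which were found and 41 of which reached the expression filter. Relative to LPS, 1 of the 40 genes other than Cp passed the test in LPS + G-CDs, Lcn2, which was lower, beside 0.25% of all tested genes higher and 0.242% lower. It encodes lipocalin 2, which binds the iron carriers of bacteria, and fell by 1.04 on the log2 scale from 15.3 ± 0.555 to 7.05 ± 1.55 FPKM (SD, n = 3, limma adjusted p = 0.023). Cp, the ferroxidase ceruloplasmin, was at 0.154 ± 0.00405 FPKM in control, 1.39 ± 0.117 in LPS and 0.255 ± 0.0758 in LPS + G-CDs (SD, n = 3), and it entered the test only through the 3 LPS libraries where it is high, so its values are a description and its calls carry no weight. Each of the other 40 genes also reached 1 FPKM in a library of another group. The median log2 difference of these 40 genes was 0.12, beside 0.02 over all tested genes. Among the regulators, Nfe2l2 (which encodes Nrf2) differed by -0.02 (adjusted p = 0.96), Keap1, its inhibitor, by 0.16 (adjusted p = 0.38) and Bach1 by -0.26 (adjusted p = 0.61). Of 8 heme synthesis genes, the largest difference was 0.69 for Urod (adjusted p = 0.28), and Alas1, the first enzyme of the pathway, differed by 0.67 (adjusted p = 0.067). Urod, Alas1 and these regulators were named after their values were seen.

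In LPS against control, 12 of the 40 genes other than Cp passed, 5 higher and 7 lower, beside 15.8% of all tested genes higher and 15.6% lower. The uptake group held 5 of them. Lcn2 rose by 3.87 (limma adjusted p = 1.8e-07) and Slc11a2, the endosomal iron transporter DMT1, by 1.79 (adjusted p = 1.1e-05), from 7.56 ± 1.08 to 28.5 ± 2.13 FPKM, whereas Steap3, the endosomal ferrireductase, fell by 1.60 (adjusted p = 1.4e-05). Slc39a14, an importer of zinc and non-transferrin iron, rose by 1.08 and Hfe, a partner of the transferrin receptor, fell by 1.07, both named after their values were seen. The small Maf genes Maff and Mafk, partners of both Nrf2 and Bach1 on DNA, rose by 2.38 (adjusted p = 2e-06) and 0.95 (adjusted p = 0.0031), while Keap1 fell by 0.38 (adjusted p = 0.022). In heme synthesis Alad fell by 1.16 (adjusted p = 0.021). Aco1, which encodes an iron regulatory protein, fell by 0.47 (adjusted p = 0.027), and Iscu, the scaffold for iron-sulfur clusters, by 0.65 (adjusted p = 0.039). In LPS + G-CDs against control, 7 of these 40 genes were higher and 4 lower, beside 12.8% and 12.4% of all tested genes. The 7 include Hebp2, which reached 1 FPKM in 1 control library and 3 LPS + G-CDs libraries. It would not have entered the test without the group where it is high, so its call carries no weight. Hebp2 was named after its values were seen.

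**Figure D5:**
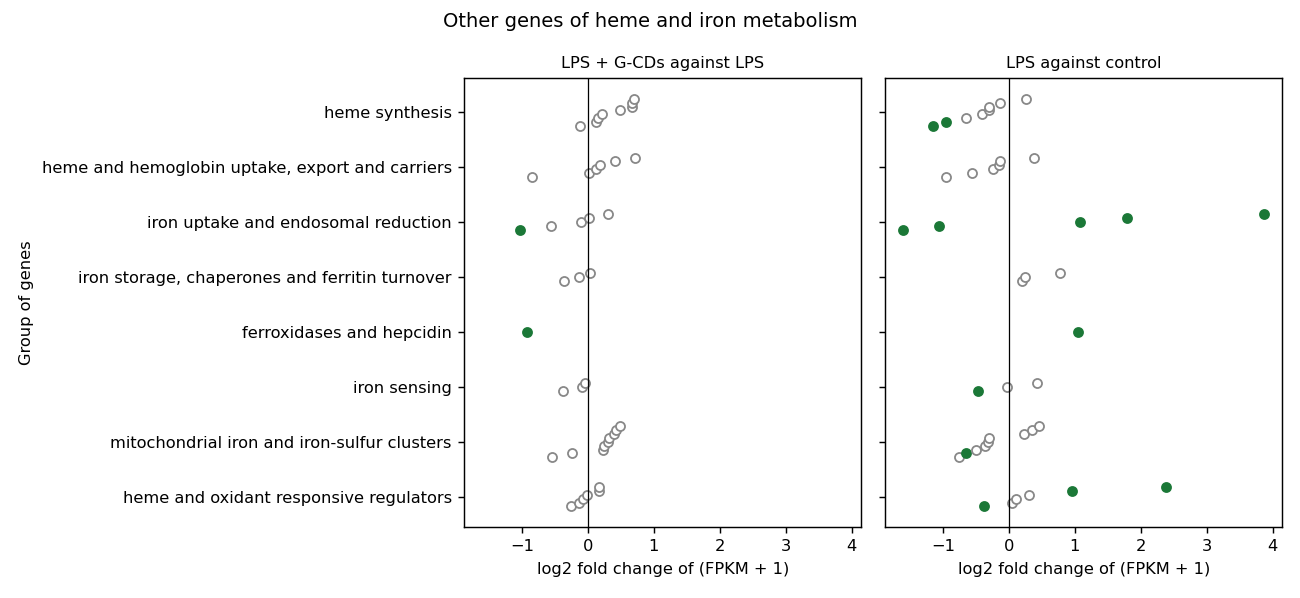
Log2 fold changes of the 41 tested genes outside the members, by group, for LPS + G-CDs against LPS and for LPS against control, with filled points at an adjusted p under 0.05 (limma). In the first comparison 2 points are filled, Lcn2 (-1.04) and Cp (-0.93), and in the second 13 are, Cp among them, which reached the expression filter only through the LPS libraries.

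As a description, the tested genes whose log2(FPKM + 1) followed Hmox1 most closely over the 9 libraries were Gclm (Pearson r = 0.985), Srxn1 (0.982), Esd (0.981), Prdx1 (0.971) and Rnf183 (0.969). Gclm, the modifier subunit of the enzyme that starts glutathione synthesis, averaged 10.7 FPKM in control, 9.28 in LPS and 41.0 in LPS + G-CDs. Srxn1, sulfiredoxin, averaged 18.4, 15.3 and 75.2 FPKM, and Prdx1, a peroxiredoxin, 157, 186 and 673 FPKM. For Slc40a1 the closest were Srxn1 (0.987), Gclm (0.985), Layn (0.956), Dcstamp (0.955) and Kif3c (0.948). The 9 libraries fall into 3 treatment groups, which both genes of each pair share.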

How the data were processed

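The authors deposited 1 table of FPKM values per gene and library with gene coordinates and lengths from Illumina reads of poly(A) mRNA. The submitters' processing notes name GRCm38 and mm10, and the table's coordinates equalled those of GENCODE M21 for 53462 of 54409 shared genes. Among the 10 members they were equal for 9. The aligner, the counter and their strand setting are not given in the sources used here.

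A gene was kept where 3 or more of the 9 libraries reached an FPKM of 1 (11585 genes). Values were fitted as log2(FPKM + 1) with limma 3.58.1 in R 4.3.3 (eBayes with a mean-variance trend, 1 model of 3 groups), two-sided, with Benjamini-Hochberg adjustment over all kept genes, and a gene was called at an adjusted p under 0.05. The library size behind each column was recovered from the step that 1 read makes, and FPKM multiplied by gene length and this size gave whole reads (within 0.05 reads) for 100.0% of values. These served for depth and for voom. The fit was also run on simulated reads with the same spread for all genes and no gene-length trend. That run does not show how the test performs on these libraries. Tables were read with pandas 2.3.3 in Python 3.11.15.

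The members and the gene groups were chosen with earlier results of these data known. Named genes are the 10 members, each other pathway gene called in LPS + G-CDs against LPS, the 3 largest called changes per group in LPS against control, and the 5 genes most correlated with Hmox1 or Slc40a1. Any others are identified as such where they appear. A gene that the rule selects may be not reported here.

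For libraries of the same number, deviations from the group means had correlations of 0.103, 0.137 and 0.113 between control and LPS, all above the limit of 0.1 set for pairing. The correlations were 0.280, 0.057 and 0.653 between control and LPS + G-CDs, and 0.095, 0.080 and 0.143 between LPS and LPS + G-CDs. Libraries of unlike numbers gave -0.127 to -0.014 between control and LPS. Between control and LPS + G-CDs they reached 0.504 (replicates 2 and 1) and -0.671 (replicates 3 and 1). These correlations do not settle whether the numbers pair libraries. The main model was unpaired, and the replicate number was fitted as a block among the alternatives.

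Alternatives were a pseudocount of 0.1, no filter, a mean FPKM of at least 5, TPM, median-of-ratios scaling, the 6 libraries of a comparison alone, no mean-variance trend, voom, removal of the gene-length trend, p under 0.01 with over 1.5-fold, the replicate number as a block, and leaving out every library once. Voom on genes with at least 10 reads in 3 libraries was added after seeing the data. Sequence shared between genes was counted as 50-base words of the longest GENCODE M21 transcript of each member. A word was shared if it occurred, on either strand, in any transcript of another gene.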

Additional observations from a re-analysis of the deposited data

How the results depend on the processing

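Between LPS + G-CDs and LPS, 4 members and 57 genes were called. Leaving out 1 library gave 2 to 5 members and 10 to 276 genes, with 2 members without any 1 LPS library or LPS + G-CDs replicate 2, and 276 genes without LPS + G-CDs replicate 1. The number of genes was 25 with a pseudocount of 0.1, 33 as TPM, 25 in the 6 libraries alone, and 288 at p under 0.01 with over 1.5-fold. In LPS against control, 3630 genes became 2412 at a mean FPKM of at least 5, where fewer genes are tested. In LPS + G-CDs against control, 2927 became 1811 in the 6 libraries alone, and 1916 to 3247 without 1 library.

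Under the replicate block, 4 members and 53 genes were called between LPS + G-CDs and LPS, and 4104 genes in LPS against control. Ftl1 became called in LPS + G-CDs against control (0.97, adjusted p = 0.03), and no other member's call changed.

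TPM changed the scaling and also the genes tested (14074 against 11585, as the filter was applied to TPM). The median over the genes tested was then -0.138, -0.224 and -0.365 in the 3 comparisons, and the called genes split into 1117 higher and 3268 lower in LPS against control (1827 and 1803 as FPKM) and 815 higher and 3420 lower in LPS + G-CDs against control (1488 and 1439). Reversed signs occurred for Blvra and Hmox2, which were never called where this happened. Blvra ranged from -0.051 (without LPS + G-CDs replicate 3) to 0.368 against LPS, and as TPM was at -0.055 in LPS against control and -0.053 in LPS + G-CDs against control. Hmox2 in LPS against control was at 0.074 with the length trend removed, and ranged from -0.150 to 0.054 on leaving out 1 library (0.035 without control replicate 3), and as TPM at -0.23 in LPS + G-CDs against control. The causes were not tested.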
